A study of Mus musculus with 4 samples.

Results

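The genes described here are 6 regulators of messenger RNA decay in inflammation, namely Zfp36, Zfp36l1, Zfp36l2, Zc3h12a, Rc3h1 and Elavl1, taken by name from the 21883 protein-coding genes that RefSeq places on mouse chromosomes 1 to 19, X and Y. They were examined in a map of MED1 on chromatin. MED1 is a subunit of Mediator, the complex that connects transcription factors to RNA polymerase II, and it was mapped by chromatin immunoprecipitation and sequencing (ChIP-seq) in RAW 264.7 cells, a mouse line with the properties of monocytes and macrophages. Of the 4 libraries, 2 came from cells exposed for 2 h to LPS (lipopolysaccharide), a component of the bacterial outer membrane, and 2 came from untreated cells. The dose of LPS is 10 ng/mL in the sample labels but 100 ng/mL in the protocol for treatment, so it is not settled. What was analysed is a single list of genomic intervals deposited for the series, and whether it draws on all 4 libraries is not stated. No interval carries a library, a height or a significance, so LPS-stimulated and untreated cells could not be compared, no spread between replicates exists, and read depth is unknown. Every value below is a position, a count or a length in that list, given without a test.

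A transcript's life in a macrophage is set partly by proteins that bind its 3′ untranslated region. Zfp36, better known as tristetraprolin, and its paralogs Zfp36l1 and Zfp36l2 bind AU-rich elements and bring in the CCR4-NOT complex, which removes the poly(A) tail. Zc3h12a (Regnase-1) is an endoribonuclease that cuts stem-loops of cytokine transcripts, and Rc3h1 (Roquin-1) binds similar stem-loops and recruits deadenylases. Elavl1 (HuR) binds AU-rich and U-rich stretches and generally protects the transcripts from decay. The first 5 of these genes therefore encode decay factors and the last a stabilising one.

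Intervals that touch each other were joined into regions. A region was counted for a gene when it overlapped the gene or had its midpoint no more than 50 kb from a gene end. All 6 genes were overlapped by a region, against 50.6% of protein-coding genes, and all 6 had the midpoint of a region no farther than 50 kb from an end, against 70.3%. In total 24 different regions were counted, 7 of which overlapped one of the genes. Zfp36l2 had 6 regions, Elavl1 had 5, Zfp36 and Zc3h12a had 4 each, Rc3h1 had 3 and Zfp36l1 had 2. The median was 4, compared with 2 over all protein-coding genes, and 4 or more regions were counted for 4 of the 6 genes, against 34.8% of all genes. The counted midpoint nearest to the limit lay 46.2 kb from Elavl1, and the nearest uncounted midpoint lay 51.3 kb from Zc3h12a.

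**Figure D1:**
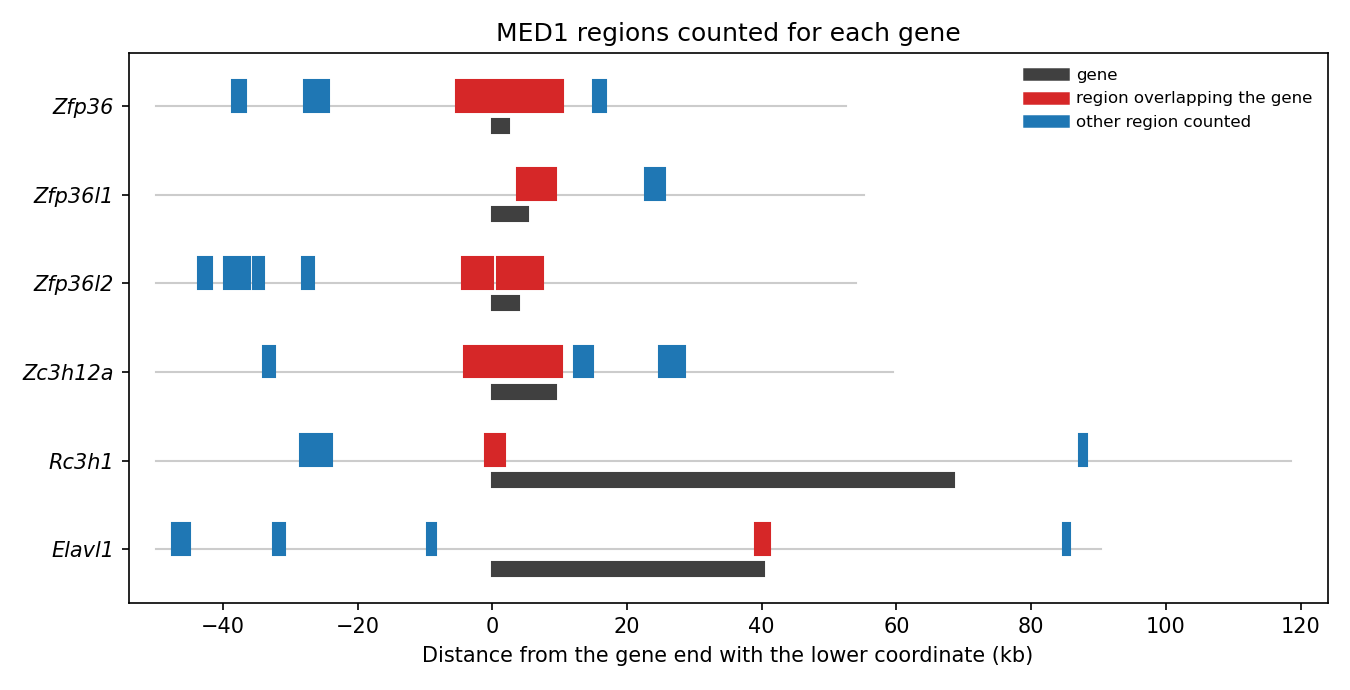
Regions counted for each gene, drawn to scale along the distance (kb) from the gene end with the lower coordinate; grey bars are genes, red bars are regions that overlap them and blue bars are other counted regions. Zfp36 and Zc3h12a lie wholly under a red bar, whereas Rc3h1 and Elavl1 are overlapped only at an end.

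The transcription starts of 5 of the genes were given by a RefSeq table of promoters on GRCm38.p6, the assembly that mm10 names; Zfp36l2 had no entry. All 5 starts lay inside a region, against 42.8% of the 17491 genes in that table. The sequences just before 4 of these starts are shown because each lies wholly inside the region over its gene. They are read 5′ to 3′ in the direction of transcription and end at the base before the gene. Capitals mark matches, on either strand, to the AP-1 motif TGANTCA, the CRE motif TGACGTCA, the EGR motif GCGNGGGCG, the ETS motif CCGGAAG, the GC box GGGCGG, the TATA motif TATAAA, the CCAAT motif or the NF-κB consensus.
Zfp36, chr7:28379229-28379478, minus strand: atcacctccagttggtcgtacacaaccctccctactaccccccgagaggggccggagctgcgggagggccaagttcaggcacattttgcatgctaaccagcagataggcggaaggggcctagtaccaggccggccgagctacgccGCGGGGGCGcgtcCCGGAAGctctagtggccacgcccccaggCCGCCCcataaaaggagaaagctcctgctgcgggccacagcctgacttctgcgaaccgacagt
Zfp36l1, chr12:80113014-80113263, minus strand: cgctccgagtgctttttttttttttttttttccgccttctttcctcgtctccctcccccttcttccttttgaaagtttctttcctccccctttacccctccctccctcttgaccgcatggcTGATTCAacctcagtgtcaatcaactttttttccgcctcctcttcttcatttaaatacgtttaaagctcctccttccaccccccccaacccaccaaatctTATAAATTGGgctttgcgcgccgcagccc
Zc3h12a, chr4:125127882-125128131, minus strand: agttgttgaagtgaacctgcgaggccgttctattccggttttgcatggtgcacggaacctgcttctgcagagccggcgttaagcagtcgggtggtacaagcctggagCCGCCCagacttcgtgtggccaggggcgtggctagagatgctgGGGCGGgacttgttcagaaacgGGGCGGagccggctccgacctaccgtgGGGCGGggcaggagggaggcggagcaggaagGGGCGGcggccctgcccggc
Rc3h1, chr1:160906161-160906410, plus strand: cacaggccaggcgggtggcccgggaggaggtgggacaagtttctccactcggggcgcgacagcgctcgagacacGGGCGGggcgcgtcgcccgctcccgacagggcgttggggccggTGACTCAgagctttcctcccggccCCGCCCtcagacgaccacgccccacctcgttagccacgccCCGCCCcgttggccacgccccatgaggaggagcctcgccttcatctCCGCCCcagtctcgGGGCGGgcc
The matching window of Elavl1 also holds the end of an annotated neighbour, Ccl25, and is not printed.

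Over windows of 300 bases, 250 before and 50 after each start, the 5 promoters held different motifs. Zfp36 had an EGR match 105 bases before its start, an ETS match 92 bases before it and a GC box 63 bases before it. EGR matches occurred in 7.52% and ETS matches in 11.6% of all 21262 promoter windows. Zfp36l1 had an AP-1 match 129 bases before its start, a TATA match at 29 bases and a CCAAT match at 24 bases, which shares a base with the TATA match. Rc3h1 had an AP-1 match too, 133 bases before its start. Matches to TGANTCA, in which N is any base, thus stood in 2 of 5 promoters, against 6.99% of all windows. The letters read TGATTCA at Zfp36l1 and TGACTCA at Rc3h1. Zc3h12a held 5 GC boxes and no other match, and Rc3h1 held 6 GC boxes, of which the last lies after the start, outside the printed stretch. GC boxes stood in 3 of the 5 promoters and in 46.2% of all windows. Elavl1 held 2 CCAAT matches, 65 and 34 bases before its start, and CCAAT was found in 38.2% of all windows. The listed start of Elavl1, chr8:4325100, lies inside the annotated gene, which ends at chr8:4325140. The nearer CCAAT match therefore lies within the gene. The NF-κB consensus (9.25% of all windows) and the CRE (2.23%) were found in 0 of the 5. A match describes letters and does not show binding, and these windows are far shorter than the regions over them.

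Base composition differed among these promoters. The promoter of Rc3h1 was 73.0% G and C with 36 CpG, and that of Elavl1 was 70.0% with 39 CpG. Zc3h12a had 65.7% and 27 CpG, and Zfp36 had 63.7% and 21 CpG. Zfp36l1 had the lowest values of the 5, 52.0% and 15 CpG, beside medians over all windows of 56.3% and 13 CpG.

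Zfp36 was covered end to end. The gene occupies chr7:28376784-28379228 on mm10 (2445 bases, minus strand), and a single region of 15.8 kb (chr7:28371462-28387238) extended 8010 bases upstream of its start and 7766 bases downstream. Only 140 of the 22570 regions were wider. It began inside Plekhg2 (1220 bases of that gene, 9.33% of its length) and ended inside Med29, which itself encodes a Mediator subunit (1992 bases, 26.8%). The region therefore cannot be assigned to Zfp36 alone. A further region of 1961 bp lay at the facing ends of Med29 and Paf1, with its midpoint 13.4 kb from Zfp36. The remaining pair lay at the ends of Rps16, a ribosomal protein gene (3707 bp), and of Supt5, an elongation factor gene (2098 bp), with midpoints 26.1 and 37.6 kb away. All 3 of these other regions thus lay at ends of neighbouring genes.

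Zfp36l1 (chr12:80107760-80113013, 5254 bases, minus strand) was covered at its start. Its region of 5856 bp (chr12:80111369-80117224) reached 4211 bases upstream and 1644 bases into the gene. It covered 31.3% of Zfp36l1 and 94.9% of Gm52006, a predicted gene on its upstream side. The second region counted, of 2981 bp, lay 17.3 kb upstream, with 2488 of its bases in the long non-coding RNA gene 2310015A10Rik and the rest past the end of that gene.

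Zfp36l2 (chr17:84183924-84187947, 4024 bases) was overlapped by a pair of regions, the only one of the 6 genes with more than 1. The wider, of 6746 bp (chr17:84184645-84191390), covered 3303 bases of the gene and continued into the non-coding Gm36279 and the end of Thada. The other, of 4603 bp (chr17:84179443-84184045), covered 122 bases at the opposite end and most of its length lay over the non-coding Gm41640. A stretch of 599 bases inside Zfp36l2 separated them, and together they covered 85.1% of the gene. The other 4 regions stood in a row on the lower-coordinate side, with midpoints 27.3, 34.7, 37.9 and 42.7 kb from the gene, and each overlapped the long non-coding RNA gene Gm19696. None of these 4 had a protein-coding gene end within 1 kb.

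Zc3h12a (chr4:125118414-125127881, 9468 bases, minus strand) also lay wholly inside a region, one of 14.6 kb (chr4:125114179-125128743). This region reached only 862 bases upstream of the start, against 13702 bases downstream, through the gene and 4235 bases past its far end towards Meaf6, whose end lay within 1 kb. Only 15 of the 14240 protein-coding genes at least as long as Zc3h12a lay within a single region, 0.105%. Over genes of all lengths the share was 1.55%, and 2 of the 6 decay regulators did so. The share thus depends on gene length. Zfp36, the other of the 2, is shorter than Zc3h12a, and no share was computed for genes of its length. Upstream, regions of 2824 and 3765 bp followed at gaps of 2.60 and 15.3 kb. The first overlapped no annotated gene and the second overlapped the non-coding Gm40246 and Gm32611. The fourth region, a single interval of 1732 bp, lay at the other end of Meaf6, a subunit gene of histone acetyltransferase complexes.

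Rc3h1 and Elavl1, the longest of the 6 genes, carried their overlapping region at the start alone. In Rc3h1 (chr1:160906411-160974976, 68566 bases, plus strand) a region of 2991 bp (chr1:160905294-160908284) reached 1117 bases upstream and 1873 bases downstream of the start and covered 2.73% of the gene. A wider region of 4696 bp ended 23.9 kb upstream and overlapped no annotated gene, and a single interval of 1191 bp lay inside Serpinc1, 18.5 kb beyond the far end. In Elavl1 (chr8:4284781-4325140, 40360 bases, minus strand) a region of 2374 bp (chr8:4323711-4326084) covered 3.54% of the gene. The region reached 984 bases upstream and 1389 bases downstream of the listed start, chr8:4325100, which lies inside the annotated gene. It also covered 880 bases of Ccl25. Of the other 4 regions near Elavl1, 3 lay at ends of the neighbours Timm44 (1357 bp), Snapc2 with Tgfbr3l (1674 bp), and Lrrc8e with Map2k7 (2578 bp). The last, 1052 bp wide, lay in the pseudogene Gm7434.

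The median width of the regions over the genes was above that of the others nearby. Those overlapping a gene measured 2374 to 15777 bp, with a median of 5856 bp over 7 regions, and the 17 others measured 1052 to 4696 bp, with a median of 2005 bp. Both ranges overlap. The median was 1948 bp over all regions and 2034 bp over the regions that overlap any protein-coding gene. By width, the region over Zfp36 stood at the 99.4th percentile of all regions and that over Zc3h12a at the 99.2nd. The wider region at Zfp36l2 stood at 94.9 and that at Zfp36l1 at 93.0, whereas those at Rc3h1 and Elavl1 stood at 74.7 and 62.5. A region of at least 10 kb lay over 2 of the 6 genes, against 2.18% of all protein-coding genes. Of the 17 regions that overlapped none of the 6 genes, 7 had an end of another protein-coding gene within 1 kb. The share over all regions was not computed, so this count only describes where the regions lay.

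The intervals that make up these regions differed in number. Of the 24 regions, 17 consisted of 3 intervals, 4 of a single interval and 3 of 5 or more, against 60.4%, 35.3% and 3.82% of all regions. The usual 3-interval region had a wide middle and narrow edges. The middle was the widest of the 3 in 92.4% of the 13627 such regions and held a median of 78.5% of the width. The region over Zfp36 had this form in an extreme way, with a middle interval of 15347 bp and edges of 289 and 141 bp. At Zfp36l1 the 3 intervals measured 434, 4471 and 951 bp, at Rc3h1 726, 1782 and 483 bp, and at Elavl1 215, 2097 and 62 bp. Zc3h12a differed, with 7 intervals, a number reached or passed by 0.492% of all regions. Its 2 wide intervals, of 5911 and 6637 bp, were separated by short ones of 492, 808 and 302 bp, so that a region about as wide as that of Zfp36 was divided near its middle. The wider region at Zfp36l2 had 5 intervals of 357, 761, 885, 2653 and 2090 bp. What the inner boundaries stand for is not stated in the sources used here.

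Bases in regions within 50 kb, a measure that does not depend on how a stretch is divided, fell at 2 levels at this window. Zfp36 had 23.5 kb, Zc3h12a 22.9 kb and Zfp36l2 20.5 kb, which stand at the 93.5th, 93.0th and 90.9th percentiles of protein-coding genes. Elavl1 had 9.04 kb, Rc3h1 8.88 kb and Zfp36l1 8.84 kb, at percentiles between 69.6 and 70.3. Within each level the lengths were close, and with 1 list no error can be put on them. The 2 levels did not hold within 100 kb, where Elavl1 had 10.7 kb, Zfp36l1 14.7 kb, Rc3h1 22.0 kb, Zc3h12a 27.2 kb, Zfp36 31.2 kb and Zfp36l2 53.7 kb. The window grows with the gene, so Rc3h1 and Elavl1 reached their values over longer windows than Zfp36l1. The median of the 6 genes was 14.8 kb, compared with 4.24 kb over all protein-coding genes (quartiles 0 and 10.6 kb).

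**Figure D2:**
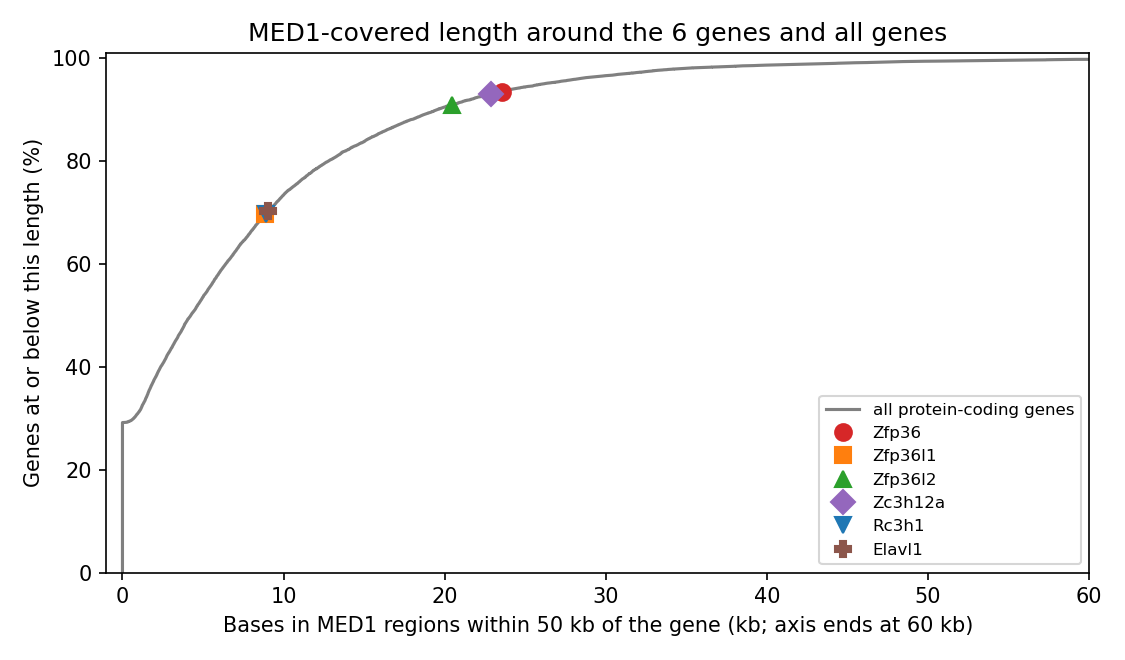
Share of protein-coding genes (%) at or below each length of MED1-covered sequence within 50 kb (kb), with the 6 genes marked on the curve. Zfp36, Zc3h12a and Zfp36l2 lie above 20 kb, and Elavl1, Rc3h1 and Zfp36l1 lie together near 9 kb.

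Large clusters of neighbouring regions are often used to mark strong enhancers. When regions at most 12500 bases apart were stitched and the 13554 clusters were ranked by covered length, 2 of the 6 genes lay in the largest 5%, against 5.46% of all protein-coding genes. Ranked by number of regions instead, 0 of the 6 did, with Zc3h12a at rank 1046 and Zfp36 at rank 2156. Under that ranking only the 6 genes were counted, so no share over all genes stands beside the 0. By covered length, Zc3h12a lay in a cluster of 3 regions that covered 21.2 kb (chr4:125114179-125146954, rank 303), and Zfp36 in a cluster of 2 regions that covered 17.7 kb (chr7:28371462-28393621, rank 462). The smallest cluster in that class covered 14.4 kb. The pair of regions at Zfp36l2 covered 11.3 kb and ranked 1016, outside the class. The regions over Zfp36l1, Rc3h1 and Elavl1 each formed a cluster alone, at ranks 2649, 5609 and 7068.

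Relatives in the same protein families varied. Of 8 such genes, 3 were overlapped by a region, against 50.6% of all protein-coding genes. The medians over the 8 were 4.02 kb covered within 50 kb and 1.5 regions counted. Zc3h12c, of the Regnase family, had a region of 14.4 kb over it and 18.0 kb covered within 50 kb, followed by Rc3h2, the paralog of Rc3h1, with 10.1 kb, and Zc3h12d with 9.17 kb. Elavl2 and Elavl4, which encode neuronal Hu proteins, had 0 regions, and the closest lay 1155 and 525 kb away. Elavl3, the third neuronal Hu gene, was not overlapped either, but 6 regions were counted for it, with 6.79 kb covered and the closest at 2.32 kb. Zfp36l3, of the Zfp36 family, also had 0 regions, with the closest 502 kb away. Among 10 other proteins that bind AU-rich or related elements, all 10 genes were overlapped, with medians of 11.7 kb and 6 regions counted. Igf2bp2 had 21.1 kb, Tia1, which encodes a translational silencer, had 20.9 kb, and Hnrnpa1 had 14.5 kb.

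The general decay machinery, which removes the poly(A) tail and the cap and degrades the transcript from either end, was overlapped at most of its genes. A region lay over 19 of 19 deadenylation genes (median 7.33 kb within 50 kb), 8 of 10 decapping and 5′ decay genes (5.03 kb) and 13 of 13 exosome genes (5.66 kb), beside 50.6% of all protein-coding genes and their median of 4.24 kb. The leading deadenylation genes were Pan2, a deadenylase subunit gene, with 20.5 kb, the CCR4-NOT subunit gene Cnot3 with 19.3 kb, and Btg1, an antiproliferative partner of CCR4-NOT, with 18.8 kb. Ddx6, Edc4 and Dcp1a, all of the decapping machinery, had 18.0, 15.7 and 11.8 kb. The exosome subunit genes Exosc5, Exosc4 and Exosc1 had 20.6, 15.1 and 14.4 kb. Of these 42 genes, Exosc6 alone lay within a single region, beside 1.55% of all protein-coding genes. Lengths within 50 kb include regions at neighbouring genes.

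Genes that act on these regulators, and transcripts known to be their targets, included larger lengths. Of 10 signalling genes, 9 were overlapped, against 50.6% of all protein-coding genes, with a median of 8.54 kb. Mapkapk2, the kinase that phosphorylates tristetraprolin, had 78.0 kb covered within 50 kb. Malt1, the protease that cleaves Regnase-1 and Roquin in lymphocytes, had 76.2 kb, and the phosphatase gene Dusp1, which limits p38 signalling, had 40.2 kb. Of 16 genes whose transcripts are targets, 12 were overlapped, 7 lay within a single region and 9 lay in the largest 5% of clusters, with a median of 27.1 kb. The shares over all protein-coding genes were 50.6%, 1.55% and 5.46% in the same order. Cxcl1 and Cxcl2, both on chromosome 5 and both among the 9, had the same 23.3 kb, so the targets are not all separate loci. Tnf had 62.0 kb, Nfkbiz 52.0 kb and Ccl3 51.2 kb, all above the 23.5 kb of Zfp36. The spread among targets was wide, since Csf2 and Il12b had 0 regions, with the closest 89.4 and 54.9 kb away.

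Genes of the IκB and DUSP families gave lengths on both sides of those of the decay regulators. The 6 decay regulators had a median of 14.8 kb (range 8.84 to 23.5 kb), compared with 23.4 kb (13.9 to 52.0 kb) for 6 genes of the IκB family and 12.8 kb (0 to 40.2 kb) for 9 phosphatase genes of the DUSP family. The median number of regions counted was 4, 5.5 and 3 in the same order. The ranges overlap, and 2 genes of each list lay within a single region, against 1.55% of all protein-coding genes. Some genes belong to more than 1 list: Nfkbiz, at 52.0 kb, is also among the targets, and Dusp1, at 40.2 kb, is also among the signalling genes. Ranked by covered length, large clusters held 2 of 6 decay regulators, 4 of 6 IκB genes and 1 of 9 DUSP genes, against 5.46% of all genes. Ranked by number of regions, they held 0 of the 6 decay regulators. Counts under that ranking were not made for the IκB genes, the DUSP genes or all genes, so the 0 has nothing to be compared with. Nfkbia and Nfkbid, which encode IκB proteins, were covered whole by regions of 12.2 and 15.8 kb, much as Zfp36 and Zc3h12a were. Dusp14 had 0 regions, and Dusp10, with 1.66 kb, and Dusp8, with 4.20 kb, were below every decay regulator.

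Markers of macrophages (Adgre1, Csf1r, Itgam, Lyz2, Spi1 and Cd68) were overlapped by a region in 6 of 6 cases and the markers of other cells reported here (Cd3e, Alb, Myod1 and Ly6g) in 0 of 4, against 50.6% of all protein-coding genes. Alb, Myod1 and Ly6g had 0 kb covered within 50 kb, whereas Cd3e had 5.59 kb, above the median of 4.24 kb over all genes.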

How the data were processed

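MED1 ChIP-seq libraries came from LPS-stimulated (2) and untreated (2) RAW 264.7 cells. Cells were double cross-linked with DSG and formaldehyde and single reads were sequenced, per the labels' protocols. Per the submitters' processing notes, Bowtie, SAMtools, MACS2 2.2.6 and mm10 were used; peak-calling settings, controls and pooling are not stated there. The list that the authors deposited gives positions of 53764 intervals on mm10. Its score column, as deposited, holds 0 throughout and was not used. With no counts, depth and the precision per library are unknown.

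Touching intervals were joined into regions, and 4 mitochondrial intervals were left out. Genes, starts and promoter sequences came from RefSeq on GRCm38.p6; 5 of 6 genes matched the promoter table. Coordinates are 1-based. Counts and covered lengths were taken for all protein-coding genes, and shares over all of them are given as description, not as a test. Counting was tested on simulated regions near 200 genes. The genes and gene lists were chosen with earlier results of these data known. From each list the text names up to 3 genes with the most covered bases within 50 kb and up to 2 without a region, all 6 regulators and neighbours under their regions; Exosc6, Nfkbid and the lowest DUSP genes among others were named after their values were seen. A marker gene of another cell type is not reported here. Joining, width, number of intervals, window, overlap and stitching were varied. Python 3.11.15, numpy 2.4.6, pandas 2.3.3 and matplotlib 3.10.9 were used.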

Additional observations from a re-analysis of the deposited data

How the results depend on the processing

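The 5 summary values were recomputed under 10 alternatives, which gave 31 values, and 23 of them stayed the same or, for counts, within 1.5 times. Some of the 23 could not change, so this number does not measure stability. Leaving touching intervals unjoined cannot alter the genes overlapped, the bases covered or the stitched clusters. A wider window cannot lose a gene already near a midpoint, and joining more regions cannot lose an overlapped gene. All 6 genes stayed overlapped by a region and stayed near a region midpoint in each alternative that recomputed these counts, including a window of 10 kb and a requirement of 500 covered bases of the gene. The alternatives were computed for the 6 genes alone. No share over all protein-coding genes therefore stands beside any count or length under them. The number of regions counted was 24 in the main analysis, 72 when touching intervals were not joined, 9 with a window of 10 kb and 42 with a window of 100 kb. The median covered length of 14.8 kb became 13.0 kb with regions at or above the median width alone, 13.1 kb with regions of 2 or more intervals alone, 8.60 kb within 10 kb and 24.6 kb within 100 kb. Both windows change the length by construction. The number of genes in the largest 5% of clusters was 2 by covered length, 3 with stitching at 5 kb, where Zfp36l2 joined Zfp36 and Zc3h12a, and 0 when clusters were ranked by their number of regions, so membership of that class depends on the ranking. No paired analysis was possible because the list assigns no interval to a library, and for the same reason no replicate could be left out. Without scores, a stricter calling threshold could not be tried, and width took its place.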
